A study of Mus musculus with 2 samples.

Results

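In total 10 glycosyltransferase genes were followed in the intestine of newborn mice: the sialyltransferases St6gal1, St3gal1, St3gal4, St3gal6 and St6galnac1, the fucosyltransferases Fut1, Fut2, Fut4 and Fut8, and the N-acetylgalactosaminyltransferase gene B4galnt2. The 10 genes were chosen by symbol from the 43346 Ensembl genes of the deposited gene tables, and all 10 were found, each as 1 row. The samples were the intestines of 2 pups of the B6NCrl strain at age 0 days, pups 1 and 2 of 1 pregnancy, with no treatment named in the labels and sex not recorded. RNA longer than 200 nt was sequenced from 10 ng per library, 1 library per pup, and the 2 libraries form 1 group. The tissue is labelled as intestine without a named segment. The design therefore gives levels at birth and the difference between littermates, and holds no suckling, weaned or adult group.

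Glycans of the gut surface end in sugars that these enzymes add in the Golgi. Sialyltransferases transfer sialic acid from its CMP donor to galactose or N-acetylgalactosamine, and fucosyltransferases transfer fucose from its GDP donor. In rodents the intestinal glycoproteins of the suckling period are known to be rich in sialic acid, and fucose replaces much of it around weaning. St6gal1 and Fut2 are the enzymes most often named for the 2 sides of that change.

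Levels are given in TPM, the deposited abundance scaled to transcript length and to the library, as the value in each pup and as mean ± SD (n = 2). Totals were 44568098 expected counts (estimated reads) over genes in pup 1 and 34797495 in pup 2. No p-value is given: with 2 values, the smallest p of an exact sign-flip test is 0.5. Epithelial markers were present throughout: 8 of 8, among them Lgals4, passed 1 TPM, meaning 1 TPM or more in each pup, and their summed level was 5494 and 5377 TPM in pups 1 and 2. Goblet cell markers summed to 3472 and 3148 TPM, smooth muscle markers to 3986 and 4173 TPM, fibroblast markers to 1273 and 1317 TPM, endothelial markers to 192 and 202 TPM and leukocyte markers to 230 and 223 TPM. The pups differed in markers of the gut ends. Distal markers, mostly posterior HOX genes, were lower in pup 2 for 10 of 13 genes with enough reads and higher for 1, against 15.5% lower and 14.2% higher of all genes tested between the pups. The 1 higher gene, Slc26a3, a chloride exchanger of the colon, was the most abundant of the list, at 49.29 and 60.19 TPM. The stomach markers summed to 90.9 TPM in pup 1 and 349 TPM in pup 2. In whole tissue, fewer cells of a type and less RNA per cell cannot be told apart.

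The promoter windows of 4 members are shown because these genes span the range of levels, from St3gal4, the highest, to Fut1, the lowest, and because St6gal1 has annotated starts with and without reads. Each is the 250 bases upstream of a RefSeq start site on GRCm38, written 5′ to 3′ on the gene's strand. Capitals mark matches on either strand to 5 short motifs. The motif of GATA factors was searched as AGATAA, and the core of HNF4 sites as CAAAGT. The CCAAT box was searched by the 5 letters of its name. For the GC box the letters were GGGCGG, and for the TATA box they were TATAAA. The lines give, in order, St3gal4 at chr9:35116865-35117114 on the minus strand, B4galnt2 at chr11:95914872-95915121 on the minus strand, the St6gal1 start with most reads at chr16:23224490-23224739 on the plus strand, an St6gal1 start without reads at chr16:23290220-23290469 on the plus strand, and Fut1 at chr7:45617356-45617605 on the plus strand.
St3gal4: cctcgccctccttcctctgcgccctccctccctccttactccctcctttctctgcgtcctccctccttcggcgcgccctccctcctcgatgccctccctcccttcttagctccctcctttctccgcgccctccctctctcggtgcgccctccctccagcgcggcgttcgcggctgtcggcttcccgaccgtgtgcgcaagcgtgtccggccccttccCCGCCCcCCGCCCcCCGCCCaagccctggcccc
B4galnt2: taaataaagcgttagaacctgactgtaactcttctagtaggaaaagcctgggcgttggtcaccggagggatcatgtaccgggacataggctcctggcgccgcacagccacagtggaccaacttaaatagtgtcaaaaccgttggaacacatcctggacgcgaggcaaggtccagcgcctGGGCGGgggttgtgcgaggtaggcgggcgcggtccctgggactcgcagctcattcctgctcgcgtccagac
St6gal1, start with reads: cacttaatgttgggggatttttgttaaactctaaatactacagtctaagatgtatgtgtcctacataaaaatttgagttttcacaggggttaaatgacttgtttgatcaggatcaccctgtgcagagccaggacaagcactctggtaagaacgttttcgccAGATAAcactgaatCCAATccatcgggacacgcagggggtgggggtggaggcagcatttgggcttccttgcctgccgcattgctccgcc
St6gal1, start without reads: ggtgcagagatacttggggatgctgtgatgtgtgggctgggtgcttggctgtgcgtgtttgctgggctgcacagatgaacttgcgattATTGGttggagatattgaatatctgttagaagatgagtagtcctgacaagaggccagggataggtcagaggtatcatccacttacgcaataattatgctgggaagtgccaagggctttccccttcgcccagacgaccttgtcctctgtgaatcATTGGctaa
Fut1: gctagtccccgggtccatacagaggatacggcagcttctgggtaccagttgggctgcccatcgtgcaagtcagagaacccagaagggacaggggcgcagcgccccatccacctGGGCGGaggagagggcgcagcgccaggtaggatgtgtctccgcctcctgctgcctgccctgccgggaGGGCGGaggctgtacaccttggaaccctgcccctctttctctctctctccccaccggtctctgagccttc

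The windows of both the most and the least abundant gene were richer in G and C than the median window. G and C made up 72.8% of the St3gal4 window, with 3 GC boxes, and 65.6% of the Fut1 window, with 2. The B4galnt2 window was at 58.4% with 1 GC box. The read-bearing St6gal1 window was at 47.2% with 1 GATA and 1 CCAAT match, and the one without reads was at 49.6% with 2 CCAAT matches. Over 32851 windows of the same length in the RefSeq table, the median was 52.4%, and a GC box was found in 32.7%, a CCAAT box in 33.8% and the GATA motif in 9.99%. None of the 5 windows held the HNF4 core (12.6% of all windows) or the TATA box (12.4%). A match describes letters only. Of the 10 members, 7 had a window in the table, and St3gal1, St6galnac1 and Fut2 had none.

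Newborn intestine carried far more sialyltransferase than fucosyltransferase RNA, and 1 gene, St3gal4, accounted for most of the sialyltransferase members' sum. St3gal4 (ENSMUSG00000032038.6, chr9:35046576-35119268), which adds sialic acid in 2,3 linkage to galactose on N- and O-linked chains, stood at 150.00 TPM in pup 1 and 166.68 TPM in pup 2, or 158 ± 11.8 TPM. This level exceeded that of 96.2% of the 21461 nuclear protein-coding genes. St3gal1 (ENSMUSG00000013846.9, chr15:67102875-67176830), which caps the core 1 O-glycan in 2,3 linkage, stood at 35.77 and 40.24 TPM. St3gal6 (ENSMUSG00000022747.12, chr16:58468125-58524243), a further 2,3 enzyme that prefers lactosamine ends, stood at 25.46 and 25.27 TPM. Both pups showed the same order of these 3 genes, and their values did not overlap.

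The 2,6 enzymes were much lower. St6gal1 (ENSMUSG00000022885.11, chr16:23224740-23360350), which adds sialic acid in 2,6 linkage to N-glycans, stood at 7.51 and 6.79 TPM (7.15 ± 0.509 TPM). St3gal4 exceeded it 21.9-fold (log2 of St6gal1 over St3gal4, -4.45 ± 0.21), and 60.9-fold when complete coding transcripts alone, those annotated as coding with no missing end, were counted. St6galnac1 (ENSMUSG00000009588.9, chr11:116765025-116775507), the enzyme that makes sialyl-Tn on mucins, had 7.88 and 2.55 expected counts (0.10 and 0.04 TPM). The pup 2 value lies under the 3 counts that a value of 0 could hide, so its level was barely measurable at this depth. The 3 St3gal members together came to 222 ± 14.8 TPM, against 7.22 ± 0.552 TPM for St6gal1 and St6galnac1. Liver markers, listed because hepatocytes are a known rich source of St6gal1, passed 1 TPM for 4 of 7 genes, with summed levels of 824 and 927 TPM, nearly all of it Afp and Ttr. Albumin (Alb) was at 0.79 and 0.86 TPM, and the part of liver-type RNA in the St6gal1 value was not tested.

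Fucosyltransferase members stood at or under 7 TPM. Fut8 (ENSMUSG00000021065.11, chr12:77238125-77476338), which adds the core fucose to the base of N-glycans and not to their ends, led them at 6.93 and 5.88 TPM. Fut4 (ENSMUSG00000049307.5, chr9:14748320-14752393), a maker of the Lewis x structure, was at 2.07 and 1.87 TPM. Fut2 (ENSMUSG00000055978.4, chr7:45648591-45666394), the secretor enzyme that puts fucose in 1,2 linkage on terminal galactose of epithelial glycans, was at 2.16 and 1.40 TPM. Fut1 (ENSMUSG00000008461.5, chr7:45617289-45621059), which makes the same linkage, had only 5 and 3 reads. Fut2 exceeded Fut1 by 38.6-fold in pup 1 (exact 95% interval 16.3 to 120.0) and 32.0-fold in pup 2 (10.7 to 158), from reads per effective length. All intervals reflect counting error alone, and reads lacking molecular identifiers may be copies of the same molecule. B4galnt2 (ENSMUSG00000013418.8, chr11:95865943-95914891), which completes the Sda antigen by adding N-acetylgalactosamine beside a sialic acid, was at 16.97 and 14.61 TPM. That was 8.61-fold above Fut2 (log2 3.11 ± 0.27).

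**Figure D1:**
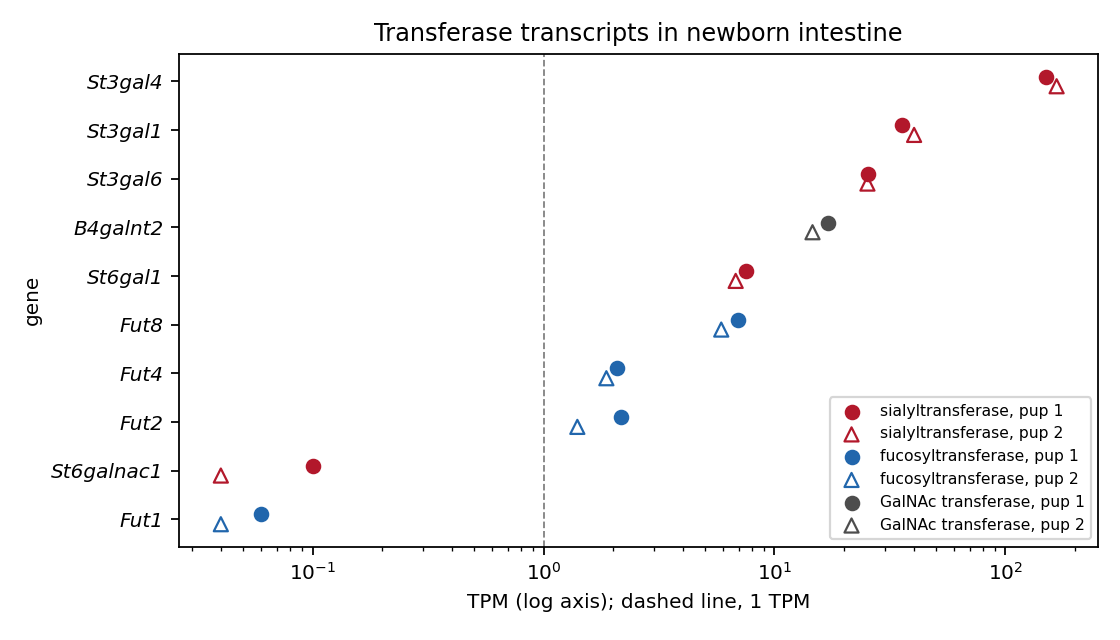
Level of each member in pup 1 (filled circles) and pup 2 (open triangles), in TPM on a log axis, coloured by enzyme class. St3gal4 is at 150.00 and 166.68 TPM, and Fut1 and St6galnac1 lie well left of the dashed line at 1 TPM.

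In all, 8 of 10 members passed 1 TPM in each pup, against 59.1% of nuclear protein-coding genes, and St6galnac1 and Fut1 were not. In the order of mean level, neighbours differed beyond the spread between pups except for 3 pairs whose values overlapped: St6gal1 and Fut8, Fut4 and Fut2, and St6galnac1 and Fut1. Per pup, the median of log2(TPM + 0.1) over the 5 sialyltransferases exceeded that over the 4 fucosyltransferases by 3.53 in pup 1 and 3.88 in pup 2, a mean of 3.71 ± 0.25 or 13.1-fold. The difference was 7.36-fold when reads were not divided by length and 8.16-fold with means over members. Summed TPM gave a ratio of 22.5-fold (log2 4.49 ± 0.29), and of 60.7-fold when Fut8 was set aside so that enzymes of terminal fucose alone were compared. The summed values were 219 and 239 TPM for the sialyltransferases and 11.2 and 9.19 TPM for the fucosyltransferases. The choice of members widens this gap, in sums and more so in medians. All 20 sialyltransferase genes summed to 319 and 339 TPM, and all 11 fucosyltransferase genes to 59.1 and 61.5 TPM. Their medians lay close, at 3.845 and 3.455 TPM for the sialyltransferases and 2.16 and 1.87 TPM for the fucosyltransferases. The 13.1-fold difference of medians thus holds for the chosen members and not for the whole classes.

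The pair St6gal1 and Fut2 showed a smaller gap than the classes. St6gal1 exceeded Fut2 3.93-fold (log2 1.98 ± 0.32), with a log2 of 1.75 in pup 1 and 2.20 in pup 2. Fut8 exceeded Fut2 3.52-fold (log2 1.82 ± 0.25) and Fut4 3.14-fold (log2 1.65 ± 0.066). St6gal1 and Fut8 were nearly level, with a log2 ratio of 0.16 ± 0.064 over the 2 pups. St6gal1 exceeded Fut1 by 134-fold in pup 1 (exact 95% interval 57.1 to 415) and by 155-fold in pup 2 (52.6 to 755), where Fut1 rests on 5 and 3 reads. With the pseudocount of 0.1 TPM the ratio was 48.4-fold, and 17.4-fold on complete coding transcripts.

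The St6gal1 level depended on short annotated transcripts. Its full-length coding transcript, of 4506 bases, received 387.29 and 310.36 expected counts, but only 2.44 and 2.56 TPM. Complete coding transcripts held 83.0% and 85.3% of the gene's reads and 32.5% and 37.6% of its TPM. The rest of the TPM came mainly from a non-coding transcript of 476 bases (2.46 and 1.99 TPM, from 33.36 and 20.67 reads) and a transcript of 627 bases (2.24 and 2.25 TPM) that the later annotation no longer lists. TPM divides reads by length, so a few reads on a short model weigh as much as many on a long one. Across 12678 nuclear protein-coding genes at 1 TPM or more, the median share of TPM on complete coding transcripts was 97.8%, and 7.12% of genes had a share below that of St6gal1.

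On complete coding transcripts the order of the members changed at this gene. St6gal1 then stood at 2.44 and 2.56 TPM, below Fut8 at 6.93 and 5.88 TPM, and the log2 ratio of St6gal1 over Fut8 became -1.32. Over Fut2 the St6gal1 ratio fell to 1.41-fold (log2 0.50 ± 0.47), close to the spread between pups. Without length normalisation the St6gal1 over Fut8 log2 ratio was -0.57, since the gene had 466.61 and 363.72 reads against 748 and 500 for Fut8. St3gal6 kept 17.63 and 16.47 TPM, values that then overlapped those of B4galnt2, at 16.97 and 14.61 TPM. The other 8 members were unaffected, because all their quantified transcripts were complete coding ones.

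**Figure D2:**
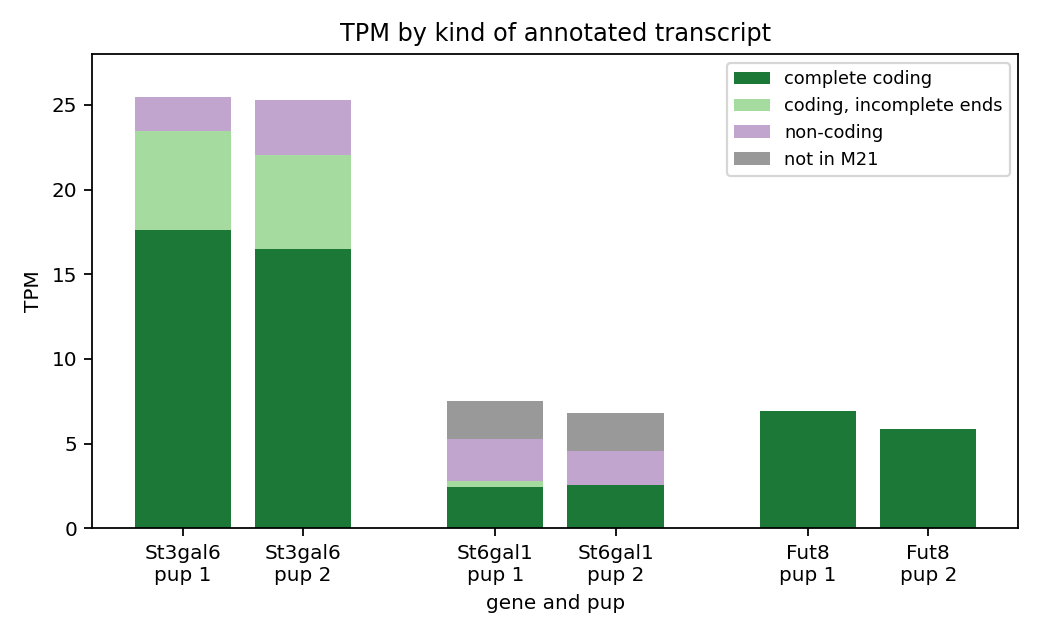
TPM of St3gal6, St6gal1 and Fut8 in each pup, stacked by kind of annotated transcript. Complete coding transcripts carry 2.44 and 2.56 TPM of St6gal1 and the whole of Fut8.

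Start sites within a gene were estimated unevenly. For St6gal1 the start at position 23224740 of chromosome 16, whose window is printed above, held 387.29 and 310.36 reads. The start at 23226021 held 33.36 and 20.67, all on the non-coding transcript. That at 23269629 held 3.49 and 0, and that at 23290470 held 0 in both pups. The St6gal1 transcript of 627 bases, with 42.47 and 32.69 reads, has no position in the later annotation and is in none of these starts. For Fut8 the transcripts from the first start group (77238125 to 77238148 on chromosome 12) took 60.1% of the gene's TPM in pup 1 and 41.1% in pup 2. The start at 77239065 took 39.9% and 58.9%. For St3gal6 the start group at 58524134 to 58524243 of chromosome 16 took 57.9% and 52.5%, and that at 58523344 to 58523444 took 34.2% and 34.0%. These shares are model estimates from reads that the transcripts share, and the other 7 members had 1 quantified transcript each.

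Some members share sequence or position with other genes. Fut1, Fut2 and Sec1, a fucosyltransferase relative of Fut2, lie side by side on chromosome 7, with 27531 bases between Fut1 and Fut2 and 11291 between Fut2 and Sec1. Sec1 had 5.44 and 13.27 expected counts, and those of Fut2 were 214.91 and 106.73, with fractions that show reads divided between genes. Per length, Fut2 exceeded Sec1 36.8-fold in pup 1 (15.5 to 115) and 7.05-fold in pup 2 (3.95 to 13.7). Exons of Sec1 also overlap those of Ntn5 on the opposite strand over 519 bases, and Ntn5 had 4.65 and 6 reads. The division of reads between Sec1 and Ntn5 was not tested, and the intervals leave it out. Exons of St3gal6 overlap those of Dcbld2 on the opposite strand over 1603 bases, and Dcbld2 had 383.38 and 340.14 reads. Exons of St3gal4 overlap the non-coding 4930581F22Rik over 412 bases (173.89 and 170.14 reads), against 10410 and 8864 reads for St3gal4 itself. Whether strand was used in counting is not stated. The counts of St3gal6, at 1574.62 and 1196.86, and of Dcbld2 carry fractions like those of Fut2, from reads divided between genes by estimate. How exact that division was for St3gal6 and Dcbld2 was not tested. The counts of St3gal4 are whole numbers and show no such division.

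Between the littermates, Fut2 differed most among the members with over 20 reads. Its ratio of pup 2 to pup 1, from counts scaled to library size, was 0.624 (exact 95% interval 0.490 to 0.791), or 1.60-fold lower in pup 2. With the reads of Fut2 and Sec1 summed, 220.35 and 120, the ratio was 0.684 (0.543 to 0.858). B4galnt2 was also lower in pup 2, at 0.826 (0.747 to 0.913), and so was Fut8, at 0.838 (0.747 to 0.940). St3gal1 was higher in pup 2, at 1.08 (1.04 to 1.12), and St3gal4 too, at 1.07 (1.04 to 1.10). The intervals of St6gal1 (0.977, 0.850 to 1.12), St3gal6 (0.953, 0.883 to 1.03), Fut4 (0.867, 0.715 to 1.05) and St6galnac1 (0.470, 0.0804 to 1.96) included 1, and Fut1 had too few reads to be compared.

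The interval thus excluded 1 for 5 of 9 members with a summed count of 10 or more, 3 lower and 2 higher in pup 2, against 29.6% of all 19088 such genes (15.5% lower and 14.2% higher). Among genes with a summed count of 300 or more these were 5 of 8 members against 38.0%. No member lay wholly outside 0.5 to 2, a bound passed by 0.802% of genes (0.367% lower and 0.435% higher in pup 2). The median ratio was 0.867 over the 9 members and 1.00 over all genes tested. With 1 library per pup there is no replicate of either pup, so these ratios describe 2 libraries.

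Epithelial, goblet and distal gut markers were mostly lower in pup 2, and the other marker lists were not. Among the members, Fut2, Fut8 and B4galnt2 were lower in pup 2, and St3gal1 and St3gal4 were higher. Of 8 leukocyte markers, 3 were lower and 0 higher in pup 2. Median ratios were 0.968 for endothelial, 0.970 for leukocyte, 1.01 for smooth muscle and 1.01 for fibroblast markers. They were 1.02 for liver and 1.07 for neuron and glia markers. Epithelial genes were lower in pup 2 for 6 of 8 and higher for 1, with a median ratio of 0.941. Posterior HOX genes were lower in pup 2 for 8 of 9 members with enough reads (summed 14.5 and 2.41 TPM), Hoxb13 being at 0 in both pups, and Hoxa10 had 377 and 6 reads. Among the colon genes of the list, Car1 had 235 and 0 reads, and Aqp8, with 1140 and 647 reads, was also lower in pup 2 (ratio 0.712, 0.645 to 0.784). Slc26a3, with 4787 and 4415 reads, was higher in pup 2 (ratio 1.16, 1.11 to 1.21). The interval of Car4, with 11 and 8 reads, included 1. Of 8 goblet genes, 6 were lower and 2 higher in pup 2, with a median ratio of 0.864. Erythroid genes were higher in pup 2 for 6 of 6, pancreas genes for 4 of 6 and stomach genes for 5 of 6, with Tff1 at 50.39 and 223.17 TPM. Of all genes tested, 15.5% were lower and 14.2% higher in pup 2. Among genes with a summed count of 300 or more, 38.0% differed in either direction, since deep counts make small shifts pass. The part of these cell types and regions in the ratios of the members was not tested.

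**Figure D3:**
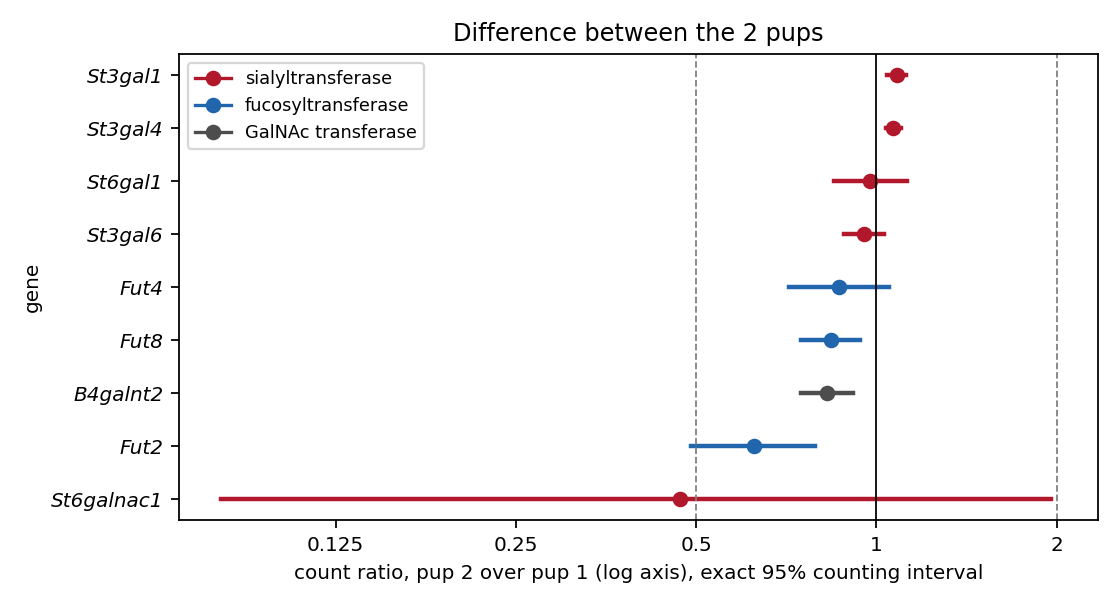
Ratio of pup 2 to pup 1 for the 9 members with a summed count of 10 or more, on a log axis, with exact 95% counting intervals (lines). Fut2 is at 0.624, St3gal4 and St3gal1 lie just right of 1, and every interval reaches inside the dashed bounds at 0.5 and 2.

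Counting every sialyltransferase, the 2,3 enzymes remained the largest part. St3gal4 made up 47.0% and 49.1% of the summed TPM of the 20 sialyltransferase genes, and St6gal1 2.35% and 2.00%. The other 15 genes had a median of 1.37 ± 0.0707 TPM, and 8 of them passed 1 TPM. St3gal5, which makes the ganglioside GM3, stood at 55.31 and 54.90 TPM, second to St3gal4. St3gal3, a 2,3 enzyme of N-glycans, was at 12.6 ± 0.0141 TPM. St6galnac2 and St6galnac6, of O-glycans and gangliosides, were at 8.69 ± 1.35 and 6.95 ± 0.396 TPM, both above St6galnac1. By family, the St3gal genes summed to 293 ± 14.4 TPM, the 6 St6galnac genes to 24.0 ± 0.926 TPM, St6gal1 with St6gal2 to 7.61 ± 0.530 TPM, and the 6 St8sia genes, which build sialic acid chains, to 4.20 ± 0.438 TPM.

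Among all 11 fucosyltransferase genes, Pofut2 led in both pups. Pofut2, which fucosylates thrombospondin repeats, stood at 32.47 and 33.78 TPM, or 55.0% of the class in each pup. Pofut1, which fucosylates EGF repeats such as those of Notch, was at 6.01 and 8.42 TPM and higher in pup 2 (ratio 1.27, 1.16 to 1.38). Fut8 stood above it in pup 1, at 6.93 TPM, and below it in pup 2, at 5.88 TPM. Fut11 was at 6.32 ± 0.403 TPM and Fut10, a relative of it, at 3.02 TPM in both pups. Fut9, a Lewis x enzyme, was under 0.1 TPM in both. Fut2 held 3.66% and 2.28% of the class. Of the 7 non-member genes, 4 passed 1 TPM.

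Genes that supply the sugar donors had list medians above that of the members. Single genes ranged in mean level from 0.72 to 103.9 TPM for CMP-sialic acid and from 4.97 to 164 TPM for GDP-fucose. Of 6 genes for CMP-sialic acid, 5 passed 1 TPM, and the list median was 22.9 TPM in pup 1 and 19.0 TPM in pup 2, against 7.22 and 6.34 TPM for the 10 members. Cmas, which makes the donor, was at 103.35 and 104.45 TPM, Nans, the sialic acid synthase, at 63.76 and 52.64 TPM, Gne, the first enzyme of the route, at 24.23 and 17.80 TPM, and the Golgi transporter Slc35a1 at 21.62 and 20.24 TPM. Gne and Nans were lower in pup 2 (ratios 0.694, 0.644 to 0.748, and 0.821, 0.774 to 0.871). Cmah, which turns the sialic acid Neu5Ac into Neu5Gc, had 190 and 41 reads and was 3.70-fold lower in pup 2 (2.63 to 5.31). It was the only gene of the 11 pathway lists whose interval lay wholly outside 0.5 to 2. Its TPM differed less, 0.94 and 0.50, because the reads were assigned to shorter transcripts in pup 2 (mean length 5709 against 3081 bases).

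The GDP-fucose route was expressed throughout. All 6 genes passed 1 TPM, with a median of 57.8 ± 2.95 TPM. Gmds and Tsta3, the enzymes of de novo synthesis, were at 94.3 ± 12.3 and 71.1 ± 1.77 TPM, the Golgi transporter Slc35c1 at 47.56 and 41.73 TPM and the related Slc35c2 at 164 ± 5.69 TPM. Gmds (ratio 0.804, 0.772 to 0.838), Slc35c1 (0.849, 0.811 to 0.889) and Tsta3 (0.928, 0.879 to 0.979) were lower in pup 2. The log2 ratio of Cmas over Gmds, 0.15 ± 0.20, was smaller than its SD. Among the transporters, Slc35c1 exceeded Slc35a1 2.12-fold.

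Several genes that remove these sugars stood above every member. Fuca2 and Fuca1, the fucosidases, were at 978 ± 6.32 and 570 ± 10.5 TPM. The lysosomal sialidase Neu1 was at 431 ± 31.0 TPM, its protective partner Ctsa at 883 ± 35.8 TPM, the lysosomal sialic acid exporter Slc17a5 at 236 ± 36.5 TPM and Npl, which cleaves free sialic acid in the cytosol, at 810.1 ± 47.6 TPM. These 4 genes of sialic acid removal were each slightly higher in pup 2, with ratios from 1.03 to 1.21. Neu4 was under 0.1 TPM in both pups, and 7 of 8 genes of sialic acid removal passed 1 TPM.

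**Figure D4:**
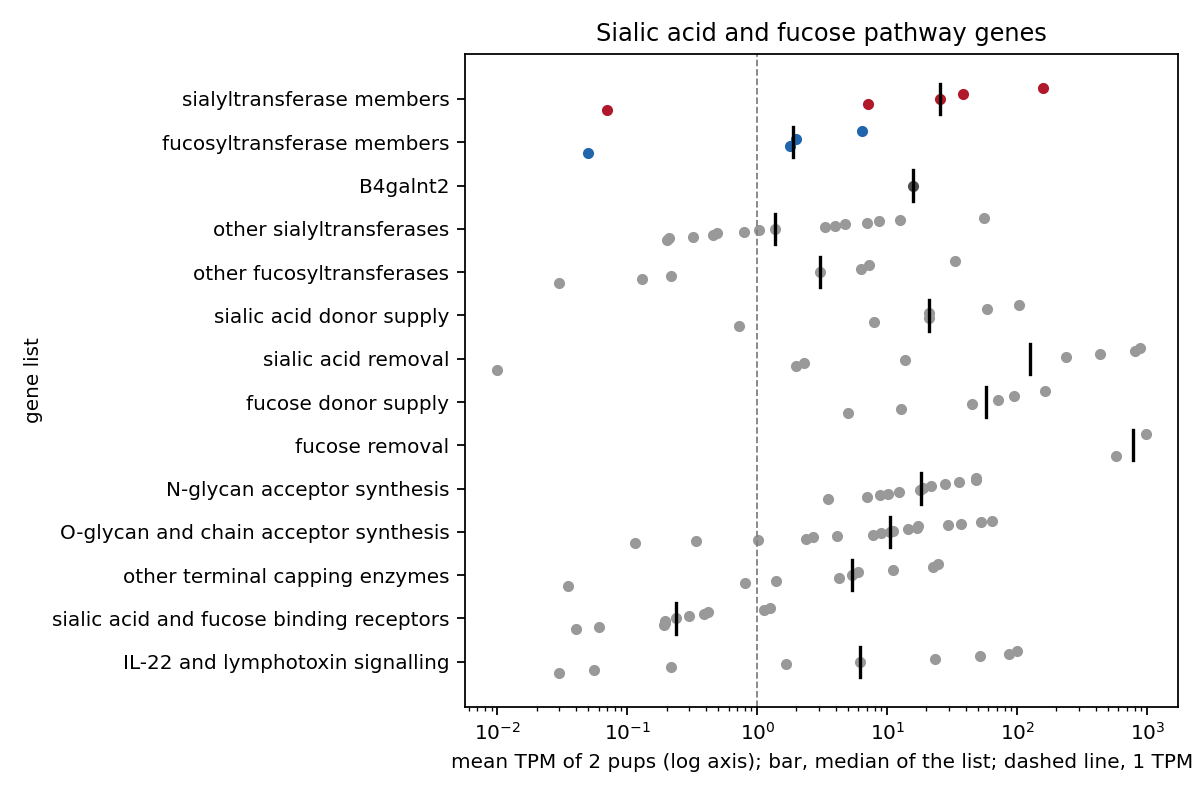
Mean TPM over the 2 pups of each gene (points, log axis) in the members and the 11 pathway lists, with the list median as a bar. Fucose and sialic acid removal genes reach 978 and 883 TPM, to the right of St3gal4 at 158 TPM, and the receptors lie mostly left of 1 TPM.

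Enzymes that build the acceptor chains were broadly expressed. All 12 N-glycan genes passed 1 TPM, with a median of 18.2 ± 0.506 TPM, led by the branching enzymes Mgat1 (48.4 ± 1.60 TPM), Mgat4a (48.4 ± 2.59 TPM), Mgat2 (35.5 ± 3.08 TPM) and Mgat4b (27.6 ± 0.870 TPM). Of 17 O-glycan and chain genes, 14 passed, with a median of 10.5 ± 0.177 TPM. Galnt1 (63.6 ± 2.53 TPM) and Galnt2 (37.1 ± 2.64 TPM) start mucin-type chains, C1galt1c1 (52.4 ± 4.02 TPM) is the chaperone of the core 1 enzyme, and B3gnt3 (29.5 ± 2.49 TPM) extends core 1. Of 9 other enzymes that cap chains, 7 passed. They were led by Gal3st1 (24.5 ± 0.156 TPM), which makes sulfatide, and B4galnt1 (22.4 ± 2.45 TPM), the ganglioside counterpart of B4galnt2, followed by Gal3st2 (11.0 ± 0.417 TPM) and A4galt (5.99 ± 0.304 TPM). Abo, which converts the H antigen made by Fut1 and Fut2, was under 0.1 TPM in both pups.

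Receptors that read these sugars were scarce. Of 11 siglec and selectin genes, 2 passed 1 TPM, Siglech (1.10 and 1.39 TPM) and Cd33 (1.01 and 1.22 TPM), and the median was 0.235 ± 0.0495 TPM. Siglece (0.415 ± 0.0354 TPM) and Selp (0.385 ± 0.0636 TPM) followed, and Sele and Siglecg were under 0.1 TPM.

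Among genes of the signals known to induce Fut2 in adult epithelium, receptor chains were detected and the cytokine Il22 was barely so. Il10rb, a chain that the IL-22 receptor shares with other cytokine receptors, was at 98.7 ± 0.693 TPM, and Il22ra1, its more specific chain, named after its value was seen, was at 6.16 and 6.26 TPM. The lymphotoxin receptor Ltbr was at 86.2 ± 3.41 TPM and the transcription factor Stat3 at 52.0 ± 3.62 TPM. Il22 had 2 and 0 reads, and Il23r 5 and 3. Of the 9 genes, 6 passed 1 TPM, and 3 of 7 with enough reads were higher in pup 2. Over the 102 genes of the 11 lists, 73 passed 1 TPM, against 59.1% of nuclear protein-coding genes. Among 96 with enough reads, 19 were lower and 19 higher in pup 2, against 15.5% lower and 14.2% higher of all genes tested.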

How the data were processed

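Total RNA of 2 newborn intestines was measured, 1 library per pup. The authors deposited gene and transcript tables of expected counts, posterior mean counts and TPM; per the file headers, effective lengths stand beside the TPM. In the deposited transcript files, isoform shares are in percent. The build was mm10 with annotation M4, per the text deposited with the tables; aligner and quantifier: not given in the sources used here. GENCODE M21 (GRCm38, which is mm10) gave names, types and positions, matched for 42462 of 43346 Ensembl genes by identifier without version. Promoter windows came from RefSeq (GRCm38.p6).

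Detection meant 1 TPM or more in both pups. Class differences and pairs are log2 values with a pseudocount of 0.1 TPM, computed per pup. Ratios between pups used expected counts rounded to whole numbers, TMM library sizes (edgeR 4.0.16, R 4.3.3) and Clopper-Pearson 95% intervals (SciPy 1.17.1), over genes with a summed count of 10 or more. The interval was also run on random (Poisson) counts simulated from the observed means. Those counts hold counting error alone, so that run cannot show how well the interval covers differences between real pups. With 3 counts as the limit of a value of 0, the floor is 0.0673 and 0.0862 CPM in pups 1 and 2.

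Transcript starts within 100 bases were summed. Named were the members and all genes of the pairs. In each pathway list the 4 highest were named, up to 3 under 0.1 TPM in both pups, and genes over 2-fold apart. Of the markers only summaries with the highest were named by rule. Alb, Ttr, Afp, Slc26a3, Aqp8, Car4, Hoxb13, Hoxa10, Car1 and Tff1 are named from marker lists, some of them after their values were seen. A single gene that this rule names is not reported here. The members and lists were chosen with earlier results of these data known. Alternatives covered the pseudocount, length normalisation, rescaling, posterior means, size factors from DESeq2 1.42.0, filters and each pup alone. Python 3.11.15, numpy 2.4.6, pandas 2.3.3 and matplotlib 3.10.9 were used.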

Additional observations from a re-analysis of the deposited data

How the results depend on the processing

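The log2 difference between the medians of the sialyl- and fucosyltransferase members (3.71) kept its sign under every setting run. It was 3.20 with a pseudocount of 1 TPM, 2.88 without length normalisation, 3.03 with means over members and, in a setting chosen after seeing the data, 3.14 on complete coding transcripts; single pups gave 3.53 to 3.88. The log2 ratio of summed TPM (4.49) was 5.92 without Fut8 and 4.29 to 4.70 in single pups. Of 98 values of the 14 gene pairs under other settings, 96 kept their sign. The exceptions were St6gal1 over Fut8, at -0.57 without length normalisation and -1.32 on complete coding transcripts. Members detected numbered 8 as reported and 6 at 2 TPM. The number of members whose ratio between pups excluded 1 was 5 under each scaling, filter and count estimate tried. Depth limits St6galnac1 and Fut1, with 8 reads or fewer per pup. No paired analysis was possible because both libraries belong to 1 group.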
